A study of Mus musculus with 10 samples.

Results

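The 10 genes described here are members of the growth hormone, STAT5 and insulin-like growth factor (IGF) axis of the liver. They were chosen by name for their place in the pathway: Ghr, Stat5a, Stat5b, Igf1, Igfals, Igfbp1, Igfbp2, Igfbp4, Socs2 and Cish. All 10 were among the 55401 genes of the deposited count tables, and all 10 were among the 12234 genes tested. Liver mRNA was sequenced in 5 wild-type (WT) mice and in 5 Thrb hep-/- mice, where each numbered sample was taken as 1 library of 1 mouse. Thrb hep-/- mice carry Thrb-loxP alleles and Afp-Cre, so that the gene of thyroid hormone receptor beta is recombined where the alpha-fetoprotein promoter drives Cre, which is in hepatocytes from before birth. WT mice were littermates, all mice were C57Bl6/J, and they were kept on chow ad libitum in a dark-light cycle, while their age and the time at which livers were taken are not given in the sources used here. The labels give no sex, and Xist was at 0 to 0.187 CPM while Ddx3y was at 40.9 to 53.1 CPM over the 10 mice.

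Growth hormone binds its receptor GHR on hepatocytes, which activates the kinase JAK2 and then the transcription factors STAT5A and STAT5B. STAT5 drives transcription of Igf1, of Igfals, whose product holds IGF1 in a stable complex in blood, and of Socs2 and Cish, whose products dampen the receptor's signal. The IGF binding proteins (IGFBP) bind IGF1 and limit its access to its receptor, and the pulses of growth hormone in males and its steadier release in females give the rodent liver its sex-biased genes.

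Promoter sequences are shown for Cish and Igfals, the members whose windows held the STAT5 motif, for Igfbp1, the member whose window held the core of an insulin response element, and for Igfbp4, the member whose level passed the test between genotypes. Windows came from RefSeq on GRCm38.p6, from 250 bases before to 50 bases after each start site. Of the 10 members 9 matched, with 15 windows, and the window of Socs2 was not among them. The first 270 bases of the window are printed from the plus strand, which carries all 4 genes. Capitals mark the STAT5 motif TTCNNNGAA in Cish and Igfals. In Igfals they also mark AGGTCA, the half-site bound by thyroid hormone receptors, on either strand. In Igfbp1 they mark the insulin response element core CAAAACAA, and in Igfbp4 the TATA box.
Cish, chr9:107296409-107296678: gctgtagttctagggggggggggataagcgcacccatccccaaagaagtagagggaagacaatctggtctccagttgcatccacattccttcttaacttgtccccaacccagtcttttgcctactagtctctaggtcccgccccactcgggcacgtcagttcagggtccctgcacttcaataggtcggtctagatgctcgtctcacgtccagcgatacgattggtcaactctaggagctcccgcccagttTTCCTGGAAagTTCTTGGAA
Igfals, chr17:24877981-24878250: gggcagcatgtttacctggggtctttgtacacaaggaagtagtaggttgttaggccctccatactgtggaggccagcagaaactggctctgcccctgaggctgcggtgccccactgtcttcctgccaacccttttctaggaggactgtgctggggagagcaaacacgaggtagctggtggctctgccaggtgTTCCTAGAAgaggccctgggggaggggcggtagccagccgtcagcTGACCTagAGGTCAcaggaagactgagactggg
Igfbp1, chr11:7197537-7197806: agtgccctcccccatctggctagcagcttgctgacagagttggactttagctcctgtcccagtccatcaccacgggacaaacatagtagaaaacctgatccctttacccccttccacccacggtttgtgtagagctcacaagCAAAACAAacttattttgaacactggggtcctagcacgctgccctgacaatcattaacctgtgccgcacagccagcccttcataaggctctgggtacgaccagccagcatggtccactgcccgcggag
Igfbp4, chr11:99040994-99041263: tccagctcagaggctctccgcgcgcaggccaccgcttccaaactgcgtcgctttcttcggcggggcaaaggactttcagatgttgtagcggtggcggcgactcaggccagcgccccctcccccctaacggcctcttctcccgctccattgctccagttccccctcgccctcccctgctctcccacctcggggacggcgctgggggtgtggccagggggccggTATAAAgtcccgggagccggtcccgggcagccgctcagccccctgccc
In Cish the matches TTCCTGGAA and TTCTTGGAA began at positions 1 and 12 from the start site. In Igfals TTCCTAGAA began 58 bases before the start site. A half-site on each strand followed, TGACCT from 13 bases before the start site, and AGGTCA from 5 bases before it onto its first base. Another Igfals window held TTCTCAGAA. Searched on both strands, TTCNNNGAA was held by 8.3% of the 32851 RefSeq promoter windows of 300 bases, the half-site by 16.3% and CAAAACAA by 2.51%, and the TATA box, spelled TATAAA, by 13.6%. Among the 9 matched members the STAT5 motif was found in 2, the half-site in 4 (Igf1, Stat5a, Stat5b and Igfals), the TATA box in 2 (Igfbp4 and Ghr) and the insulin response element core in 1. Counted by window, as the percentages are, these were found in 3, 6, 2 and 1 of the 15 windows. These matches describe letters in a short window and not binding.

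Total counts ranged from 26477195 to 28530198 in WT mice and from 27779196 to 28590704 in Thrb hep-/- mice, and 3 counts corresponded to 0.0993 to 0.117 CPM. Values are normalized CPM, which are counts scaled to the library total after TMM normalization, unless a scale is named. Thrb was lower in each Thrb hep-/- mouse than in each WT mouse (log2 fold change −0.32, adjusted p = 0.036). Its product's target Dio1, which encodes the deiodinase that activates and clears thyroid hormone in liver, was at 141 to 208 CPM in WT mice and 13.8 to 25.9 CPM in Thrb hep-/- mice, while Hectd3, another listed target, had a log2 fold change of −0.15 (adjusted p = 0.35). Of 12234 genes, 499 or 4.08% had a Benjamini-Hochberg adjusted p below 0.15 by the quasi-likelihood test of edgeR, the source of each adjusted p here unless another is named, and are termed called, 185 (1.51%) higher and 314 (2.57%) lower in Thrb hep-/- mice. Summed hepatocyte markers were at 97886 to 141064 CPM in WT and 111987 to 123206 CPM in Thrb hep-/- mice. Of their 8 genes 0 were called by edgeR, with 2 at an unadjusted p below 0.05, which 13.6% of all genes tested reached. Of the other cell types' markers, all 6 Kupffer cell genes were fitted lower and all 6 stellate cell genes higher, with 1 call among them, Des. An unadjusted p below 0.05 with edgeR was reached by 3 of these Kupffer and 2 of these stellate cell genes. Of 5 tested endothelial and 3 tested cholangiocyte genes 0 were called, with 2 of each at an unadjusted p below 0.05. Of 2 tested leukocyte genes 1 was called lower, S100a8, from raw counts of 3 to 172. It was at 0.664 to 6.01 CPM in WT and 0.0993 to 1.08 CPM in Thrb hep-/- mice, and met the filter of 1 CPM in 5 libraries mainly through WT mice. Its call was lost in 5 of the 13 alternatives that gave it an adjusted p (up to 0.29).

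Of the axis genes, most were not called and several had wide intervals. Igfbp4 was the only gene of the 10 that was called, against 4.08% of all genes tested, and no member passed 0.05, which 1.35% of all genes did. Of the 10 members 7 were fitted higher and 3 lower in Thrb hep-/- mice, with a median log2 fold change of 0.11 against 0.00054 over all tested genes. In all 10 members the genotypes overlapped, while they stood apart in 3.64% of all genes, with Thrb hep-/- mice higher in 1.38% and lower in 2.26%.

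**Figure D1:**
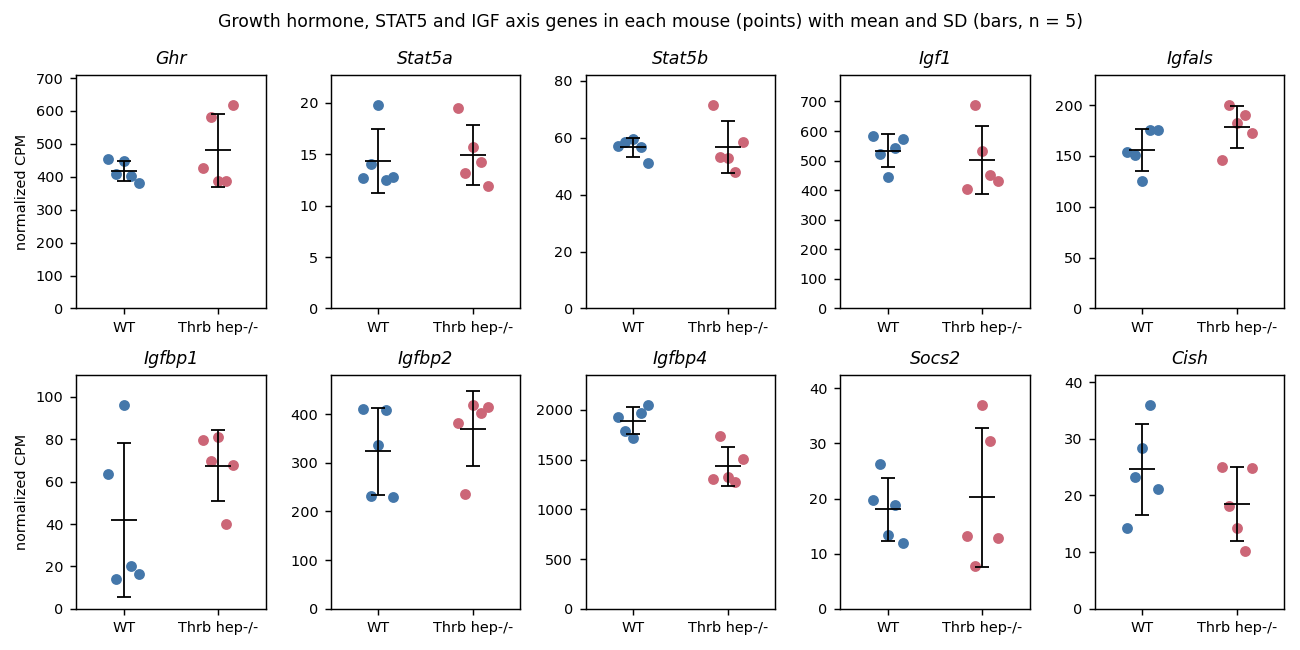
Normalized CPM (vertical axis of each panel, from 0) of the 10 axis genes in each of 5 WT mice and 5 Thrb hep-/- mice, with the mean and SD as bars. Igfbp4 lay at 1715 to 2045 CPM in WT and 1277 to 1735 CPM in Thrb hep-/- mice, and the points of the genotypes overlap in each panel.

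The receptor and both STAT5 genes did not pass the test between genotypes. Ghr (chr15:3317760-3583492, minus strand, GRCm38 as for all genes below) was at 454, 407, 447, 403 and 381 CPM in WT mice 1 to 5 and at 427, 582, 387, 386 and 618 CPM in Thrb hep-/- mice 1 to 5. Thrb hep-/- mice 2 and 5 thus stood above all other mice, and the remaining mice of that genotype lay within the WT range. The log2 fold change was 0.20 with a standard error (SE) of 0.14 and a 95% interval from −0.11 to 0.51 (adjusted p = 0.59).

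Stat5b (chr11:100780731-100850724, minus strand) encodes the STAT5 protein that carries most of the growth hormone response in liver. It was at 57.0, 58.5, 59.7, 56.9 and 51.0 CPM in WT mice and at 71.5, 53.2, 52.9, 47.8 and 58.5 CPM in Thrb hep-/- mice, with a log2 fold change of 0.0035 and a 95% interval from −0.21 to 0.22 (adjusted p = 0.99). Stat5a (chr11:100859351-100885169, plus strand), its neighbour at a distance of 8626 bp, was at 12.7, 14.1, 19.8, 12.5 and 12.8 CPM in WT mice and at 19.5, 13.2, 15.7, 14.3 and 11.9 CPM in Thrb hep-/- mice, which gave a log2 fold change of 0.05 with a 95% interval from −0.28 to 0.39 (adjusted p = 0.93). Thrb hep-/- mouse 1 was the highest mouse of its genotype for both genes, and without it both fold changes were negative, at −0.06 for Stat5a and −0.09 for Stat5b. Stat5a shared 8.52% of its 50-base stretches and Stat5b 10.98% with other transcripts, so that part of their reads could not be assigned.

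Transcripts of the circulating hormone and its carrier did not pass the test either. Igf1 (chr10:87858265-87937042, plus strand) was at 582, 523, 444, 543 and 574 CPM in WT mice and at 403, 688, 531, 452 and 431 CPM in Thrb hep-/- mice. Of the latter, mice 1, 4 and 5 lay at the low end of the WT range or under it, and mouse 2 was the highest of all 10. This gave a log2 fold change of −0.09 (SE 0.14, 95% interval from −0.40 to 0.22, adjusted p = 0.85). Igfals (chr17:24865997-24882010, plus strand) was at 154, 151, 125, 175 and 175 CPM in WT mice and at 146, 200, 182, 190 and 173 CPM in Thrb hep-/- mice. Mice 2, 3 and 4 of the latter exceeded each WT mouse, and the log2 fold change was 0.19 (SE 0.11, 95% interval from −0.05 to 0.43, adjusted p = 0.49). The intervals bound a loss of Igf1 mRNA at 0.40 on the log2 scale and a gain of Igfals mRNA at 0.43.

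Igfbp4 (ENSMUSG00000017493, chr11:99041244-99054392, plus strand), which encodes a binding protein that blocks IGF1 until it is cleaved by the protease PAPP-A, was lower in Thrb hep-/- livers. It was at 1927, 1785, 1715, 1970 and 2045 CPM in WT mice and at 1309, 1735, 1327, 1277 and 1506 CPM in Thrb hep-/- mice, from raw counts of 37672 to 54639 per library. Of the Thrb hep-/- mice 4 of 5 lay below each WT mouse, and mouse 2 stood above WT mouse 3. The mean was 1888 ± 136 CPM (SD, n = 5) in WT and 1431 ± 192 CPM (SD, n = 5) in Thrb hep-/- mice. The log2 fold change was −0.40 (SE 0.11, 95% interval from −0.64 to −0.16, adjusted p = 0.11 with edgeR), and a two-sided exact permutation test of the 252 ways to divide the mice gave p = 0.016, where 0.0079 is the smallest it can give. In bulk liver, fewer cells of a type and less mRNA per cell cannot be told apart. The call rested on small margins. It was lost in 8 of the 10 fits without 1 mouse (adjusted p from 0.16 to 0.26) and with the replicate number as a block (adjusted p = 0.21), it was kept without WT mouse 3 (0.13) or Thrb hep-/- mouse 2 (0.04), and the log2 fold change lay between −0.47 and −0.36 in all of these. DESeq2 gave an adjusted p of 0.0046. Acute-phase genes were also lower, with 12 of 20 called. Their summed level was 36132 to 84104 CPM in WT and 24478 to 40680 CPM in Thrb hep-/- mice. Summed Kupffer cell markers, all 6 fitted lower, were at 80.3 to 331 and 92.2 to 199 CPM. Stellate cell markers, all 6 fitted higher, were at 82.0 to 125 and 112 to 134 CPM, and endothelial markers at 113 to 134 and 119 to 152 CPM. The part of these genes and cell types in the lower Igfbp4 was not tested.

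Igfbp1 (chr11:7197782-7202546, plus strand), whose transcription insulin represses within hours, was among the most variable genes of these livers. It was at 63.6, 14.1, 96.0, 20.2 and 16.5 CPM in WT mice and at 79.5, 69.9, 81.1, 39.8 and 67.7 CPM in Thrb hep-/- mice. WT mice thus fell into a pair near the Thrb hep-/- level and 3 mice under each Thrb hep-/- mouse, and the highest WT mouse exceeded the lowest by 6.8-fold, against 2.04-fold in Thrb hep-/- mice. Its SD between mice, on the log2 scale and within genotypes, was higher than that of 99.1% of tested genes. The log2 fold change of 0.68 (SE 0.54) had a 95% interval from −0.53 to 1.89 (adjusted p = 0.64), which spans a fall and a large rise. Irs2, an adaptor of the insulin receptor that is likewise repressed by insulin, was at 39.2, 9.34, 29.7, 17.0 and 5.28 CPM in WT mice and at 42.0, 18.6, 37.4, 19.8 and 30.3 CPM in Thrb hep-/- mice. The same WT mice, 2, 4 and 5, were lowest for both genes. Of the 10 insulin and FOXO1 responsive genes 1 was called, against 4.08% of all genes, and the list's median was −0.05. This was Srebf1, the lipogenic transcription factor, which fell (log2 fold change −0.85, adjusted p = 0.10), with the call lost in 5 of 18 alternatives (adjusted p up to 0.25).

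Igfbp2 (chr1:72824503-72852474, plus strand), a second abundant binding protein of liver, was at 411, 232, 336, 408 and 229 CPM in WT mice and at 381, 235, 418, 402 and 414 CPM in Thrb hep-/- mice. Low and high mice occurred in both genotypes, with Thrb hep-/- mouse 2 far under the other 4 of its genotype. Its log2 fold change was 0.20 (SE 0.21, 95% interval from −0.25 to 0.65, adjusted p = 0.74).

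Levels of different genes were compared per kilobase of exon. In WT livers Igfbp4 led with 428 ± 30.7 normalized CPM per kb (SD, n = 5), followed by Igfbp2 with 175 ± 48.7. Igf1 (53.8 ± 5.58), Igfals (49.3 ± 6.54) and Ghr (46.2 ± 3.44) formed a group whose ranges overlapped, and Igfbp1 (27.6 ± 23.9) overlapped with Ghr. Stat5b (10.2 ± 0.603) exceeded Cish (3.83 ± 1.26) in each WT mouse, and Cish, Stat5a (2.01 ± 0.434) and Socs2 (1.89 ± 0.598) did not differ beyond their ranges from their neighbours in this order. In Thrb hep-/- livers Igfbp4 (324 ± 43.5) and Igfbp2 (200 ± 41.5) kept the first places, and Igf1 moved from place 3 to place 5 within its group. With the longest transcript as length, Ghr was at 100 ± 7.46 per kb in WT livers, which put it in place 3 and above Igf1 (75.6 ± 7.84) in each WT mouse, so that the overlap of these 3 genes depends on the length used. Socs2 was then at 4.24 ± 1.34 per kb.

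Igfbp4 was also the largest part of the Igfbp mRNA in each liver, with a lower mean share in Thrb hep-/- livers. Of the sum of Igfbp1 to Igfbp7 per kb, Igfbp4 took 59.4, 70.7, 58.2, 62.7 and 74.3% in WT mice and 50.1, 65.0, 48.6, 51.0 and 52.7% in Thrb hep-/- mice. The means were 65.0% ± 7.08 and 53.5% ± 6.61 (SD, n = 5), and Thrb hep-/- mouse 2 again lay among the WT mice. The share of Igfbp2 was 26.1% ± 4.99 in WT and 33.1% ± 6.90 in Thrb hep-/- livers, and that of Igfbp1 4.07% ± 3.46 and 7.29% ± 1.70. The whole sum was 662 ± 66.0 and 606 ± 30.0 normalized CPM per kb. These shares were not tested, since they restate the values above.

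**Figure D2:**
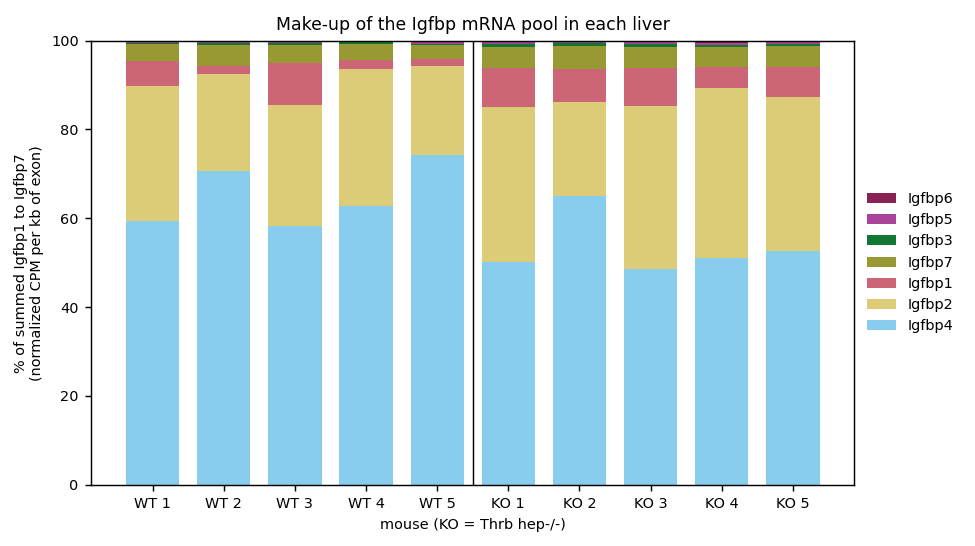
Share of each Igfbp gene (vertical axis, % of the summed normalized CPM per kb of exon of Igfbp1 to Igfbp7) in each of the 5 WT and 5 Thrb hep-/- (KO) livers, as stacked bars. Igfbp4 is the largest part of each bar, at 58.2 to 74.3% in WT and 48.6 to 65.0% in Thrb hep-/- mice.

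The feedback inhibitors that STAT5 induces, Socs2 and Cish, varied widely between mice of 1 genotype. Socs2 (chr10:95385362-95417180, minus strand) was at 19.8, 26.2, 13.3, 18.9 and 11.9 CPM in WT mice and at 13.2, 7.69, 36.9, 30.4 and 12.8 CPM in Thrb hep-/- mice. Among the latter, mice 3 and 4 exceeded each WT mouse and mouse 2 lay under each of them, a 4.8-fold range, from raw counts of 205 to 1076 over all libraries. Its SD between mice was higher than that of 98.3% of tested genes, and the log2 fold change of 0.17 (SE 0.42) had a 95% interval from −0.78 to 1.11 (adjusted p = 0.92). Cish (chr9:107296026-107302784, plus strand) was at 14.3, 23.3, 28.4, 35.9 and 21.1 CPM in WT mice and at 25.1, 18.1, 14.2, 10.2 and 24.8 CPM in Thrb hep-/- mice. Thrb hep-/- mice 3 and 4, the highest of their genotype for Socs2, were the lowest for Cish. For Cish the fold change on the log2 scale was −0.41 (SE 0.29, 95% interval from −1.06 to 0.23, adjusted p = 0.59), as large as that of Igfbp4 but with a wider spread. Exons of Cish overlap 740 bp of other annotated genes, and the counting used no strand, so that reads there could not be assigned to it.

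Of the other genes of growth hormone receptor signalling, 13 of 14 were tested and 0 were called by edgeR. An unadjusted edgeR p below 0.05 was reached by 1, Ptpn1, a phosphatase of JAK2, against 13.6% of all genes. Of the 13, 6 were fitted higher and 7 lower, with a median log2 fold change of −0.02. Socs1 was not tested, at no more than 1.59 CPM. Jak2, the kinase bound to the receptor, was at 13.5 to 17.1 CPM in WT and 14.1 to 16.6 CPM in Thrb hep-/- mice (log2 fold change 0.02, 95% interval from −0.17 to 0.20, adjusted p = 0.96).
Socs3, a feedback inhibitor of cytokine and growth hormone receptors, was at 26.6, 15.8, 36.7, 44.1 and 14.6 CPM in WT mice and at 50.1, 14.7, 11.1, 13.4 and 44.2 CPM in Thrb hep-/- mice. Thrb hep-/- mice 1 and 5 stood above each WT mouse and the other 3 near or under the lowest one, and the same mice 1 and 5 were the highest of their genotype for Cish. Bcl6, a repressor that occupies STAT5 sites, was at 11.4, 10.7, 37.3, 10.7 and 8.01 CPM in WT mice and at 26.4, 10, 8.89, 14.4 and 49.5 CPM in Thrb hep-/- mice (log2 fold change 0.48, adjusted p = 0.79). Its highest mice were WT mouse 3 and Thrb hep-/- mice 1 and 5. Stat3 (log2 fold change −0.26, adjusted p = 0.63) was at 274 CPM in Thrb hep-/- mouse 1 and at 130 to 145 CPM in the other 4, against 168 to 231 CPM in WT mice. Without mouse 1 it was called lower (log2 fold change −0.52, adjusted p = 0.046), and Ptpn1 was called as well (log2 fold change −0.18 and adjusted p = 0.35 with all mice, adjusted p = 0.12 without mouse 1). Stat3 and Ptpn1 were chosen after their values were seen. In the other 17 of 18 alternatives neither was called (adjusted p up to 0.81 for Stat3 and 0.57 for Ptpn1).

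Of the other genes of the IGF system, 9 of 13 were tested, 8 were fitted higher and 1 lower, with a median log2 fold change of 0.19, and 0 were called by edgeR. An unadjusted p below 0.05 was reached by 2, Igfbp3 and Igfbp6, against 13.6% of all genes. Of these 22 signalling and IGF genes, DESeq2 called 1 and limma-voom 2. Igf2, Pappa, Pappa2 and Stc2 were not tested, at no more than 0.303 CPM in any mouse, and Igf2 was at 0 to 0.0357 CPM. Igf1r, the receptor of IGF1, which hepatocytes hardly express, was at 1.33 to 2.35 CPM in WT and 1.46 to 3.58 CPM in Thrb hep-/- mice (adjusted p = 0.81). Igfbp3, the main partner of IGF1 and IGFALS in blood, was at 4.12, 6.68, 9.44, 7.97 and 4.98 CPM in WT mice and at 9.66, 12.0, 10.1, 9.73 and 9.65 CPM in Thrb hep-/- mice. Each Thrb hep-/- mouse thus exceeded each WT mouse. The log2 fold change was 0.62 (SE 0.19, 95% interval from 0.21 to 1.04), the adjusted p of 0.16 missed the threshold with edgeR, and it passed with DESeq2 (0.048), limma-voom (0.085), either other filter (0.13 and 0.14), a replicate block (0.15, below the threshold before rounding) and without WT mouse 3 (0.061) or 4 (0.15, below the threshold before rounding). In the other 11 of 18 alternatives it missed the threshold as well, including 8 of the 10 fits without 1 mouse, with adjusted p up to 0.32 (without WT mouse 5). Igfbp3 lies 3539 bp from Igfbp1 on chromosome 11, and in liver it is made mainly by cells other than hepatocytes. Summed endothelial markers, 3 fitted higher and 2 lower, were at 113 to 134 CPM in WT and 119 to 152 CPM in Thrb hep-/- mice. Stellate cell markers, all 6 fitted higher, were at 82.0 to 125 and 112 to 134 CPM. Kupffer cell markers, all 6 fitted lower, were at 80.3 to 331 and 92.2 to 199 CPM. The part of these cell types in the Igfbp3 values was not tested. Igfbp6 (log2 fold change 0.65, adjusted p = 0.28), Igfbp5 (0.30, adjusted p = 0.58) and Igfbp7 (0.15, adjusted p = 0.58) were not called.

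**Figure D3:**
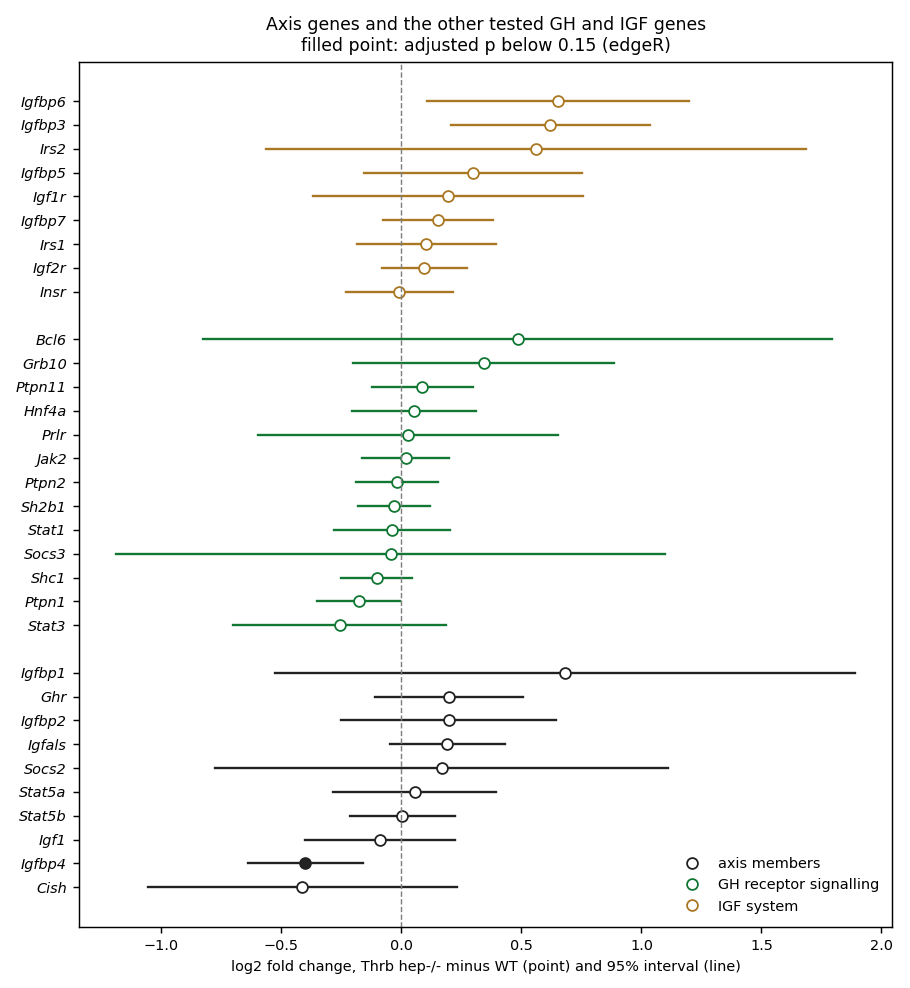
Log2 fold change of Thrb hep-/- minus WT mice (horizontal axis, points) with 95% intervals (lines) for the 10 axis genes and the 22 other tested genes of growth hormone receptor signalling and the IGF system. Igfbp4, at −0.40, is the one filled point, which marks an adjusted p below 0.15, and Igfbp1, Socs2, Socs3 and Bcl6 have wide intervals.

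Genes whose sex bias in rodent liver depends on the pattern of growth hormone release were read as a downstream measure of STAT5. All 19 male-biased genes were tested, 13 were fitted higher and 6 lower, the median log2 fold change was 0.12, and 4 were called, 2 in each direction, while 1.51% of all genes were called higher and 2.57% lower. Bcl6 stands in this list as well. Both sex-biased lists were chosen with earlier results of these data known, so their counts are a description. Mup20, a major urinary protein, was at 657, 943, 1050, 1139 and 559 CPM in WT mice and at 1155, 1908, 1476, 2529 and 1431 CPM in Thrb hep-/- mice. Each Thrb hep-/- mouse was higher than each WT mouse (log2 fold change 0.97, adjusted p = 0.080). Cyp4a12b, a fatty acid hydroxylase, was at 15.4, 26.3, 55.3, 54.1 and 22.7 CPM and at 66.2, 84.9, 93.7, 130 and 101 CPM (log2 fold change 1.45, adjusted p = 0.089). Both genes share long stretches of sequence with close copies, and the split of reads between copies is uncertain. Cyp4a12a was not called (log2 fold change 0.92, adjusted p = 0.19). Susd4, a complement inhibitor, fell (log2 fold change −0.84, adjusted p = 0.13). Of 18 alternatives the call was lost in 8 for Susd4 (adjusted p up to 0.29), in 6 for Cyp4a12b (up to 0.22) and in 4 for Mup20 (up to 0.22), with the direction kept in all.
Moxd1, a monooxygenase-like gene, fell from 29.2 to 126 CPM in WT mice to 0 to 1.10 CPM in Thrb hep-/- mice (log2 fold change −7.41, adjusted p = 0.0019), the one gene of both sex-biased lists past 0.05. It met the filter of 1 CPM in 5 libraries through the WT mice, where it was high. Its call is therefore not independent of that filter. The classical STAT5B-dependent male genes Cyp7b1 (log2 fold change 0.05, adjusted p = 0.97) and Hsd3b5 (−0.02, adjusted p = 0.98), both steroid enzymes, were not called, nor were Cyp2d9 (0.34, adjusted p = 0.47), Egfr (−0.51, adjusted p = 0.32) and Selenbp2 (−0.75, adjusted p = 0.61). Of the 26 female-biased genes 12 were tested, since the other 14 did not exceed 2.54 CPM in any mouse. Of the 12, 4 were fitted higher and 8 lower, with a median log2 fold change of −0.62, and 1 was called, lower, as were 2.57% of all genes. This was Cyp17a1, a steroid enzyme, at 23.7, 28.2, 26.6, 18.6 and 157 CPM in WT and 8.34, 11.9, 12.5, 6.32 and 6.90 CPM in Thrb hep-/- mice (log2 fold change −2.47, adjusted p = 0.11). Each Thrb hep-/- mouse was lower than each WT mouse, and without the high WT mouse 5 the log2 fold change was −1.4 (adjusted p = 0.018). The call was lost in 9 of 17 alternatives, with limma-voom (0.16), no filter (0.22), the replicate block (0.24), without WT mouse 2 (0.17) and without each Thrb hep-/- mouse in turn (0.15, not below the threshold before rounding, to 0.24). Cyp2b9 was not tested, at 0 to 0.799 CPM.

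Single mice stood apart in these lists, in both genotypes. WT mouse 5 was the lowest of the 5 WT mice in 13 of 19 male-biased genes, or 68.4%, against 21.3% of all tested genes, and the highest in 0 of them. Among the 12 female-biased genes it was the highest WT mouse in 6, or 50%, against 21.7% of all genes. Its median log2 deviation from the mean of the 10 mice was −0.70 over the male-biased and 0.76 over the female-biased list. Of the Thrb hep-/- mice, mouse 5 was the highest of its genotype in 11 of 19 male-biased genes, or 57.9%, against 15% of all genes, and mouse 1 the lowest in 9, or 47.4%, against 23.9%. Thrb hep-/- mouse 4 was the lowest of its genotype in 6 of 12 female-biased genes, or 50%, against 21.4% of all genes, with a median log2 deviation of −0.92. Cux2, the transcription factor of the female liver programme, was at 1.21, 0.489, 1.04, 6.37 and 45.7 CPM in WT mice and at 1.04, 10.1, 0.309, 0.662 and 0.318 CPM in Thrb hep-/- mice. Thrb hep-/- mouse 2 was the other mouse with high Cux2, and it had 13.9 CPM of the female-biased Cyp2b10 against 0.861 to 2.57 CPM in the others of its genotype. Among the axis genes, WT mouse 5 was the lowest WT mouse for Ghr, Stat5b, Igfbp2 and Socs2 and the highest for Igfbp4, and its Igf1 (574 CPM) lay within the range of the other WT mice. Without WT mouse 5, 2 of 5 sex-biased calls were left, and the log2 fold change of Igfbp4 was −0.37 (adjusted p = 0.23).

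**Figure D4:**
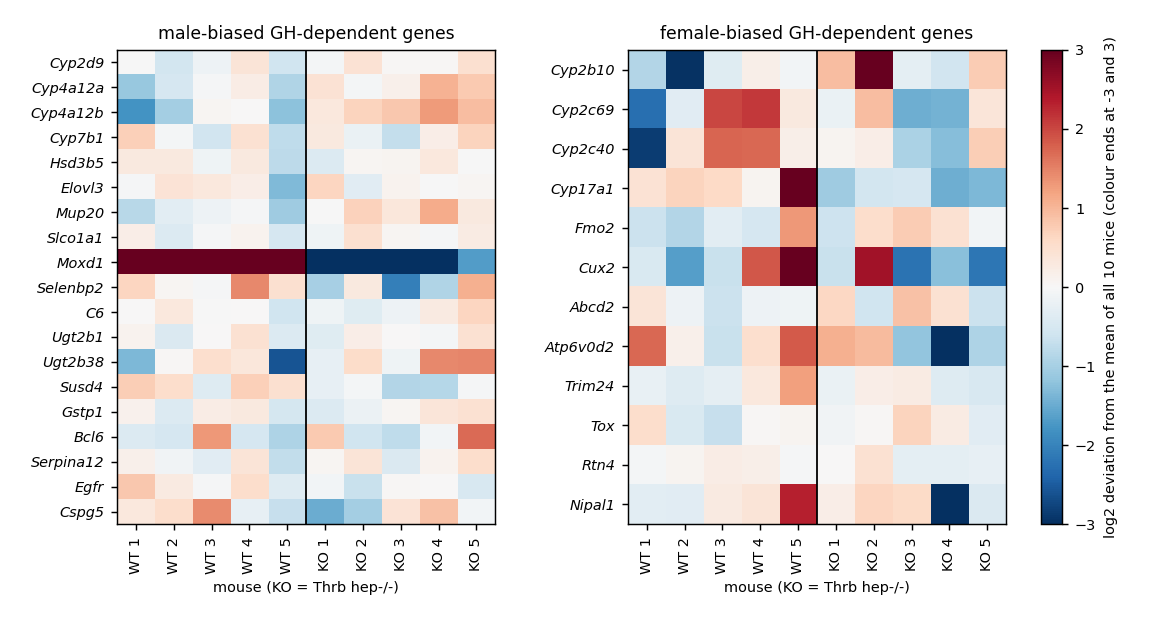
Log2 deviation of each tested male-biased (left) and female-biased (right) growth hormone dependent gene from its mean over the 10 mice, as colour, in each of the 5 WT and 5 Thrb hep-/- (KO) mice. The WT 5 column is mostly blue on the left (median −0.70) and mostly red on the right (median 0.76), and Moxd1 is red in all WT mice and blue in all KO mice.

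Lipid genes that rise when growth hormone signalling is lost in the liver were compared as a further downstream measure. This list and the acute-phase list below were chosen with earlier results of these data known, so their counts are a description. Of the 8 tested of 10, 2 were called, both higher, against 1.51% of all genes, 6 were fitted higher and 2 lower, and the median log2 fold change was 0.51. Vldlr, a lipoprotein receptor, was at 0.455 to 1.0 CPM in WT and 1.56 to 3.47 CPM in Thrb hep-/- mice (log2 fold change 1.72, adjusted p = 0.0084). With raw counts of 13 to 100, Vldlr met the filter of 1 CPM in 5 libraries only through the Thrb hep-/- mice, where it was high. Its call is therefore not independent of that filter. Cidec, a lipid droplet protein, was at 2.55 to 4.69 and 4.87 to 17.8 CPM (log2 fold change 1.51, adjusted p = 0.065). In both genes the genotypes did not overlap, and the call of Cidec was lost in 3 of 18 alternatives (adjusted p up to 0.17). Lpl, the lipoprotein lipase, was at 6.92 to 22.4 and 15.4 to 55.0 CPM and missed the threshold (log2 fold change 1.31, adjusted p = 0.18).
The acute-phase genes, which cytokines drive through STAT3, had a median log2 fold change of −1.1, and 12 of 20 tested were called, all lower, against 2.57% of all genes. Saa1 was at 265 to 7135 CPM in WT and 25.8 to 158 CPM in Thrb hep-/- mice (log2 fold change −5.03, adjusted p = 0.048), and Hp, encoding haptoglobin, at 3917 to 10525 and 2116 to 3929 CPM (log2 fold change −1.33, adjusted p = 0.022). Saa2 (−6.06), Lcn2 (−4.18), Orm2 (−4.09) and Apcs (−1.74) fell as well.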

How the data were processed

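Liver mRNA of 5 WT and 5 Thrb hep-/- mice was analysed, with groups and replicate numbers taken from the sample labels. The authors mapped reads on mm10 with HISAT2 2.2.1 and counted them per Ensembl 102 gene with HTSeq-count 0.9.1 (union mode, minimum quality 10, without strand), and the deposited values are raw counts per gene. Reads of several genes were not counted, which lowers genes with close copies or overlapping neighbours. The deposited table of the authors' own edgeR comparison (fold changes, F and p-values) was not used.

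Counts were analysed in R 4.3.3 with edgeR 4.0.16: genes were kept at 1 CPM or more in 5 or more libraries, followed by TMM scaling, the quasi-likelihood test with robust settings and Benjamini-Hochberg adjustment over all tested genes, with thresholds of 0.15 and 0.05. Scripts were tested on simulated data. Alternatives were DESeq2 1.42.0, limma-voom (limma 3.58.1), RLE and upper-quartile scaling, no filter, filterByExpr, no robust settings, the replicate number as a block and leaving out each mouse. Single-gene permutation tests were exact and two-sided. Log2 deviations used a prior count of 2. Coordinates and exon lengths came from GENCODE M21 on GRCm38, another release than the one counted on.

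The members and lists were chosen with earlier results of these data known. Named by rule were Thrb, Dio1, Hectd3, the members, up to 6 called genes per list, 10 fixed pathway genes and the 3 genes most like Igf1 and Socs2, of which 1 is not reported here. Irs2, Stat3, Ptpn1, Igfbp5, Igfbp6, Igfbp7, Cyp4a12a, Cyp2d9, Egfr, Selenbp2, Fmo2, Trim24, Nipal1, Cyp2b10 and Lpl were chosen after their values were seen. No 2 libraries of the same genotype agreed within sampling noise. The labels give each library as a numbered liver sample, which was taken as 1 mouse. On that reading p-values measure the spread between these mice. The limit of 3 counts covers counting error only.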

Additional observations from a re-analysis of the deposited data

Results flagged for a closer look

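In 17 of 119 groups of 5 mice, 1 mouse lay far from the other 4, with a gap above Dixon's 95% limit. For genes named beforehand, chance flags about 1 in 20 groups, or 5.95. Some genes checked were chosen after their values were seen, Stat3, Igfbp5, Igfbp7, Fmo2, Nipal1 and Cyp2b10 among those flagged. The 17 can therefore not be compared with that rate. Among axis and IGF genes these were Stat5a in WT mouse 3 (19.8 CPM, others 12.5 to 14.1), and in Thrb hep-/- mouse 2 Igfbp2 (235 CPM, others 381 to 418), Igfbp3 (12.0 CPM, others 9.65 to 10.1) and Igfbp5 (12.3 CPM, others 17.7 to 18.7). Igfbp7 was low in WT mouse 5 (23.3 CPM, others 31.8 to 35.2). Of the signalling genes, Bcl6 stood out in WT mouse 3 (37.3 CPM, others 8.01 to 11.4) and Stat3 in Thrb hep-/- mouse 1 (274 CPM, others 130 to 145).

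WT mouse 5 was high for 4 female-biased genes, Cux2 (45.7 CPM, others 0.489 to 6.37), Cyp17a1 (157 CPM, others 18.6 to 28.2), Fmo2 (36.1 CPM, others 7.83 to 11.6) and Nipal1 (18.5 CPM, others 2.87 to 4.81). Thrb hep-/- mouse 2 was high for Cux2 (10.1 CPM, others 0.309 to 1.04), Cyp2b10 (13.9 CPM, others 0.861 to 2.57) and the acute-phase gene Lcn2 (30.2 CPM, others 6.32 to 11.9). It also had the lowest total count of its genotype (27779196, others 28441288 to 28590704). Moxd1 was at 1.10 CPM in Thrb hep-/- mouse 5 (others 0 to 0.225), and Bace2, one of the genes most like Igf1, at 5.15 CPM in WT mouse 3 (others 6.32 to 6.64).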

How the results depend on the processing

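Of 58 named genes with a test, 27 kept direction and side of the threshold under all alternatives, 15 turned direction under at least 1, and 16 changed side without turning. The count of all called genes was 499 with edgeR, 885 with DESeq2 and 849 with limma-voom, and lay between 222 (without Thrb hep-/- mouse 3) and 665 with 1 mouse left out; it was 227 without WT mouse 2 and 239 without WT mouse 5. The number of called axis genes went from 1 to 0 with the replicate block and lay between 0 and 1 with 1 mouse left out. The number of called genes among the other signalling and IGF genes went from 0 to 1 with DESeq2, no filter, filterByExpr or the replicate block, to 2 with limma-voom, and lay between 0 and 2 with 1 mouse left out. That of sex-biased genes went from 5 to 1 without a filter and lay between 1 and 5 with 1 mouse left out (1 without WT mouse 2 or Thrb hep-/- mouse 3, 2 without WT mouse 5 or Thrb hep-/- mouse 4, 3 without Thrb hep-/- mouse 1 or 5). Of the lipid, insulin and acute-phase genes, 15 were called, and 10 to 18 with 1 mouse left out. The WT level of Igfbp4 per kb went from 428 to 493 with the longest transcript as length, that of Ghr from 46.2 to 100 and that of Socs2 from 1.89 to 4.24.

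Replicate numbers did not pair the mice: correlations of the deviations of same-numbered mice were −0.2 to 0.0091. The replicate block gave 348 called genes. Fitted log2 fold changes turned sign in Stat5b (−0.0027 with upper-quartile scaling, −0.042 with limma-voom, −0.0053 with no filter, −0.008 with the replicate block), Cyp7b1 (−0.037 with limma-voom), Hsd3b5 (0.0097 with limma-voom, 0.017 with the replicate block), Taf2 (−0.0049 with the replicate block), and, over the fits without 1 mouse, in Stat5a (−0.061 to 0.2), Stat5b (−0.093 to 0.059), Socs2 (−0.17 to 0.38), Jak2 (−0.023 to 0.062), Socs3 (−0.4 to 0.19), Bcl6 (−0.064 to 1.1), Igf1r (−0.056 to 0.31), Cux2 (−4.2 to 0.12), Cyp7b1 (−0.13 to 0.28), Hsd3b5 (−0.17 to 0.071), Bace2 (−0.16 to 0.013), Taf2 (−0.11 to 0.12), Tbc1d8b (−0.0053 to 0.14), Nek2 (−0.17 to 0.22), Trim24 (−0.5 to 0.02). With all mice those of Cux2 (−2.2), Bcl6 (0.48) and Trim24 (−0.37) were not near 0, and each turned without the mouse 5 of 1 genotype, WT for Cux2 and Trim24 and Thrb hep-/- for Bcl6. The cause was not tested. With 5 mice per genotype, genes as variable as Igfbp1, Socs2 and Cish have intervals wider than 1 on the log2 scale, and changes within them were not detectable here.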

Other observations

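Over the 10 mice, after the genotype means were removed, the genes whose log2 level was most like that of Igf1 among 12233 others were Slc25a40 (Pearson r 0.97, Spearman rho 0.939) and Bace2, a membrane protease (0.969 and 0.818). Those most like Socs2 were Taf2, a subunit of the general transcription factor TFIID (0.968 and 0.927), Tbc1d8b (0.965 and 0.903) and Nek2, a mitotic kinase (0.963 and 0.964). They were picked as the highest of all genes, and the mice share their libraries and depth between the genes, so these values are a description.

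Stat5b, Stat5a and Stat3 lie side by side on chromosome 11, with 8626 bp between the former pair and 72 bp of overlap between the exons of Stat5a and Stat3. All 3 were highest in Thrb hep-/- mouse 1 among mice of that genotype, at 71.5, 19.5 and 274 CPM.

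Trim24, a further female-biased gene, had its highest level of 48.2 CPM in WT mouse 5 and lay at 14.6 to 24.2 CPM in Thrb hep-/- mice.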
